A study of Mus musculus with 7 samples.

Results

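The HSP70, HSP90 and DNAJ (J-domain) chaperone genes were described in a fast-twitch hindlimb muscle, the extensor digitorum longus, of wild type mice and of AMPK double knockout mice. AMPK, or AMP-activated protein kinase, responds to low cellular energy, and the knockout concerns both of its catalytic subunits (α1 with α2). A gene was a member when its platform symbol began with Hspa, Hsph, Hsp90, Dnaja, Dnajb or Dnajc followed by a number or isoform letter, with Hspa9 and Dnajc19 set aside by the rule. The rule used no measured value and gave 58 of the 19938 genes read by a probe set with 1 gene symbol. Hspa1b and Hsp90ab1 also carry such symbols but had no probe set with 1 symbol, and were not analysed here. There were 4 wild type arrays and 3 arrays labelled AMPKα1α2 double knockout, 1 per mouse, all on a mixed background of C57/Bl6 and SV129. The series title concerns AMPK and fatty acid use of muscle in exercise. The labels give no age, sex or exercise, and do not say whether the deletion was limited to muscle. Total RNA came from whole muscle by TRIzol extraction, with 100 ng labelled per array.

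HSP70 proteins bind unfolded stretches of other proteins and release them in a cycle driven by ATP. J-domain proteins of the DNAJ classes bring clients to HSP70 and speed up its ATP hydrolysis, and HSP90 takes over many clients, kinases and receptors among them, at a later stage of folding. Some members are made at all times, whereas others are switched on by heat shock factor 1 when proteins unfold in the cytosol, or by the unfolded protein response when they unfold in the endoplasmic reticulum (ER). In muscle these chaperones serve the folding of myosin and the turnover of contractile proteins.

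Heat shock factor binds inverted GAA units, so the RefSeq promoter windows (assembly GRCm38.p6, the 250 bases before each annotated start) were searched for a pair of them. The element was GAA, any 2 bases, TTC, or TTC, any 2 bases, GAA. Each form reads the same on both strands, and neighbouring elements may overlap by sharing a unit. A window was held for 47 of the 58 members. Of the heat-inducible cytosolic members, 5 of 6 with a window had the element (Hspa1a, Hsph1, Dnaja1, Dnaja4 and Dnajb4), against 3 of 41 other members (7.32%: Dnajb6, Dnajc10 and Dnajc27) and 14.5% of all genes with a window (3932 of 27025). A gene was counted when any of its windows matched, and genes differ in their number of windows. By window it was 6 of 12 for the heat-inducible members, 4 of 50 for the other members and 12.8% of all windows. A form with a further unit was found in 1 member, Dnajb6, and in 0.514% of all genes. A match is a run of letters, not a shown binding site.

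The windows of heat-inducible members, the group the results turn on, are given 5′ to 3′ on the gene's strand, with the GAA and TTC units in capitals. They are the full window of the inducible HSP70 gene Hspa1a (chr17:34972157-34972406, minus strand), with its element at position -104 from the start, 1 of the full windows of Hsph1 (chr5:149636337-149636586, minus strand), with its element at -33, and 1 of the full windows of Dnajb1 (chr8:83607925-83608174, plus strand), where these letters do not occur, as in its other window. Stretches of 30 bases follow for Dnaja1 (chr4:40722333-40722362, plus strand), Dnaja4 (chr9:54699458-54699487, plus strand), Dnajb4 (chr3:152193846-152193875, minus strand) and, for its further unit, Dnajb6 (chr5:29735843-29735872, plus strand).
Hspa1a: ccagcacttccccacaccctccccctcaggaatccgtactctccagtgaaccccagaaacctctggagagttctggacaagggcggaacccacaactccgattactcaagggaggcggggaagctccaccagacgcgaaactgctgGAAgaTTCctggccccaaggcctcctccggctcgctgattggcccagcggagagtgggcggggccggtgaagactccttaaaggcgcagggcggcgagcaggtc
Hsph1: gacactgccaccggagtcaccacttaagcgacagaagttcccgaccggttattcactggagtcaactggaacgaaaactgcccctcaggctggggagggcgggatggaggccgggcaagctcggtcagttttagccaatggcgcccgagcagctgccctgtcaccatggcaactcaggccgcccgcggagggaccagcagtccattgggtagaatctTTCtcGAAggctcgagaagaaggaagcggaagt
Dnajb1: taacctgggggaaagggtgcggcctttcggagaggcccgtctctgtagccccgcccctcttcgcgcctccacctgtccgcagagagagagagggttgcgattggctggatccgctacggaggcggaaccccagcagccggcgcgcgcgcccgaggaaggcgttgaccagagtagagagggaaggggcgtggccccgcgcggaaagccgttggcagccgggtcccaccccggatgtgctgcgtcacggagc
Dnaja1: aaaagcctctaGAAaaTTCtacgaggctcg
Dnaja4: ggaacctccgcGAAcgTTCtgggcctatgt
Dnajb4: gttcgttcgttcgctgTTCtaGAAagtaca
Dnajb6: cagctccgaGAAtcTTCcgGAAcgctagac

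Prkaa1, which encodes α1, read 9.54, 9.48, 9.61 and 9.53 in wild type, against 9.09, 9.19 and 8.80 in knockout, in the order of replicates 1 to 4 and 1 to 3 that is kept throughout, and differed by -0.51 ± 0.09 (adjusted p = 0.12). Prkaa2, which encodes α2, read 12.30, 12.03, 12.28 and 12.28 in wild type, against 12.04, 11.95 and 12.04 in knockout, and differed by -0.21 ± 0.07 (adjusted p = 0.39). For Prkaa1 every knockout array was lower than every wild type array, whereas for Prkaa2 the groups overlapped. The sources used here do not say whether these probe sets lie within the deleted parts. All values are log2 expression, and a difference is knockout minus wild type with its moderated standard error. The p-values are from limma, adjusted by Benjamini-Hochberg across all probe sets with 1 gene symbol. Array medians ran from 7.50 to 7.58, and the 10 fast-fibre marker genes were at 11.85 or above on every array. Knockout replicate 2 stood apart from the others in immediate early genes, which respond within minutes to many stimuli: 22 of 23 measured were highest of all 7 arrays there. The mean of these 23 genes lay 1.65 above the wild type mean on that array, against -0.02 and 0.21 on the other knockout arrays and -0.12 to 0.18 on the wild type arrays. Where leaving out this array moved a stated difference of a member or pathway gene by over 1.5 times, or turned its sign, the value without it is given as well.

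Of the 58 members, 0 had an adjusted p under 0.05 in limma with Benjamini-Hochberg adjustment, where 0.0251% of all genes did, and the smallest adjusted p was 0.12. At an unadjusted p under 0.05, 9 members were lower in knockout (15.5%, with 6.69% of all genes) and 1 was higher (1.72%, with 3.93% of all genes). Every knockout array lay below every wild type array for 6 members (10.3%, with 5.33% of all genes) and above for 1 (1.72%, with 3.29% of all genes). In either direction 18 members (31.0%, with 20.4% of all genes) did not overlap once knockout replicate 1 was left out. It was 14 (24.1%, with 12.3% of all genes) once wild type replicate 2 was, and 11 (19.0%, with 17.9% of all genes) once knockout replicate 3 was. Without wild type replicate 4 it was 10 (17.2%, with 10.8% of all genes), and without knockout replicate 2 it was 8 (13.8%, with 13.4%). Without wild type replicate 1 or 3 it was 7 (12.1%), with 10.9% and 10.7% of all genes. In direction alone, 37 members were lower (63.8%, with 53.3% of all genes) and 21 higher. The median difference was -0.04 over the members and -0.00 over all genes. Without knockout replicate 3 the median was -0.017 over the members and -0.018 over all genes. In that setting 34 of 58 members were lower, with 12297 of 19938 over all genes. Knockout replicate 3 was the lowest of all 7 arrays for 24 of the 58 members (41.4%, with 17.6% of all genes). The 5 largest positive differences and the 6 largest standard errors all belonged to heat-inducible cytosolic members, while the 51 other members had a median of -0.05, with 36 of them lower. The median SE over the members was 0.06, a precision set by having 7 arrays.

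**Figure D1:**
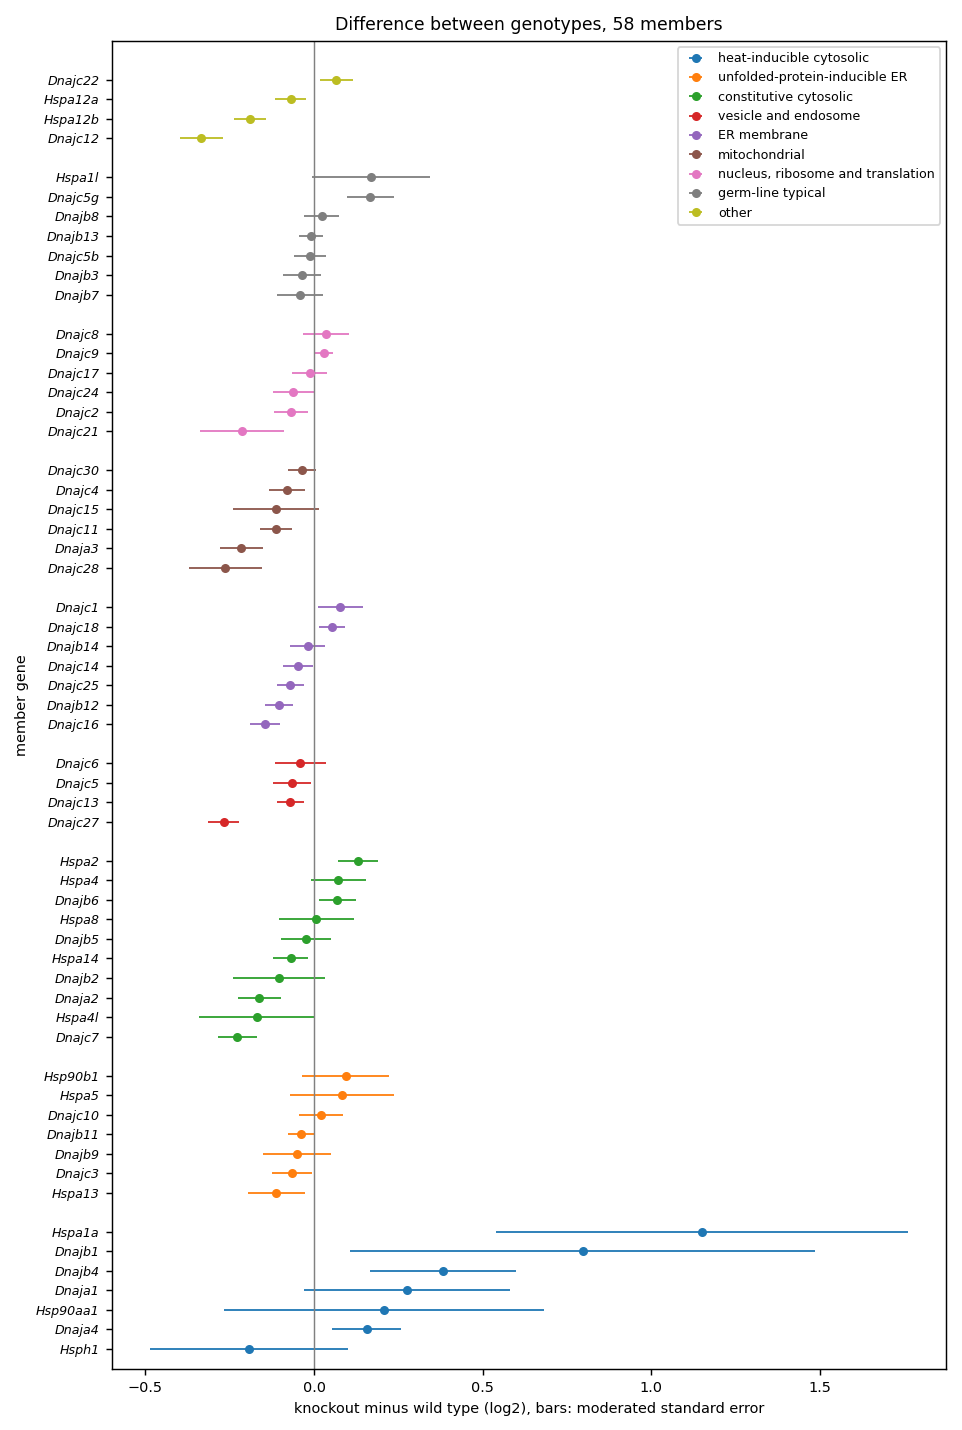
Difference between genotypes (knockout minus wild type, log2, horizontal axis) for each of the 58 members (vertical axis), coloured by group, with bars for the moderated standard error from 4 wild type and 3 knockout arrays. Hspa1a lies farthest right at 1.15 and Dnajc12 farthest left at -0.33, and 6 of the 7 heat-inducible members have the widest bars.

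Most heat-inducible cytosolic members were highest on 1 knockout array. Knockout replicate 2 was the highest knockout array for 7 of 7 of them, and the highest of all 7 arrays for 5 of 7, where 1995 of the 19938 genes had their highest value. In direction 6 were higher and 1 lower, and 0 of 7 had an unadjusted p under 0.05. The median difference was 0.28, which is the value of Dnaja1, whose dimmer probe set gave -0.00. Without knockout replicate 2, 3 were higher and 4 lower with a median of -0.08, and without both arrays numbered 2, left out together after the data were seen, it was 0.10. It was 0.51 without knockout replicate 3 and 0.43 without wild type replicate 2. The immediate early genes were also high on knockout replicate 2, at 1.65 above the wild type mean, and their part in these values was not tested. The median SD of these genes was 0.31 between wild type arrays and 0.64 between knockout arrays, against 0.06 and 0.08 over all genes.

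Hspa1a, the main heat-inducible HSP70, read 9.03, 9.92, 9.22 and 9.11 in wild type, against 9.69, 12.10 and 9.63 in knockout. Knockout replicate 2 was the highest array, 2.78 above the wild type mean, and the other knockout arrays lay within the wild type range. The difference was 1.15 ± 0.61 (adjusted p = 0.59), with a 95% confidence interval of -0.30 to 2.60, and 0.34 without knockout replicate 2. Hspa1a lies beside its near-identical copy Hspa1b in the order Neu1, Hspa1b, Hspa1a, Hspa1l, Lsm2, so its reading may hold signal of either copy.

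Dnajb1, the J-domain partner of HSP70 in the heat shock response, read 7.78, 7.83, 7.96 and 7.71 in wild type, against 7.57, 10.56 and 7.73 in knockout. Replicate 1 of the other knockout arrays lay below wild type and replicate 3 within it, and the difference of 0.80 ± 0.69 (adjusted p = 0.74) became -0.17 without knockout replicate 2. Dnajb4, a relative of Dnajb1 that is abundant in muscle, read 10.69, 10.90, 10.76 and 10.74 in wild type, against 10.82, 11.74 and 10.90 in knockout. Its difference was 0.38 ± 0.22 (adjusted p = 0.61), and 0.09 without that array. In both genes 1 knockout array was high and the others were close to wild type.

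Dnaja1, a class A co-chaperone of cytosolic HSP70, read 9.23, 9.86, 9.36 and 9.18 in wild type, against 9.52, 10.39 and 9.14 in knockout. The groups overlapped, and the difference of 0.28 ± 0.30 (adjusted p = 0.80) was -0.08 without knockout replicate 2. It was the member whose probe sets spread most, its 2 probe sets giving -0.00 and 0.28. Dnaja4, of the same class, read 10.14, 10.37, 10.38 and 10.15 in wild type, against 10.24, 10.60 and 10.40 in knockout, and differed by 0.16 ± 0.10 (adjusted p = 0.67), and by 0.06 on leaving out knockout replicate 2, with knockout replicate 1 inside the wild type range and replicates 2 and 3 above it.

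For the remaining heat-inducible members, wild type replicate 2 was as high as, or higher than, knockout replicate 2 on the probe set used. Hsp90aa1, the inducible cytosolic HSP90, read 10.16, 11.75, 10.35 and 10.43 in wild type, against 10.54, 11.73 and 10.37 in knockout. Both arrays numbered 2 stood more than a unit above the rest of their own genotype, by 1.44 in wild type and 1.27 in knockout. The difference was 0.21 ± 0.47 (adjusted p = 0.92), -0.22 without knockout replicate 2 and 0.57 without wild type replicate 2. Another of the 3 Hsp90aa1 probe sets had the reverse order, with 11.53 on wild type replicate 2 and 11.64 on knockout replicate 2. Hsph1 (HSP110), which exchanges nucleotide on HSP70, read 10.09, 11.17, 10.29 and 10.52 in wild type, against 10.45, 10.67 and 9.85 in knockout, and differed by -0.19 ± 0.29 (adjusted p = 0.86), and by -0.37 on leaving out knockout replicate 2. Here the highest array was wild type replicate 2 and the lowest was knockout replicate 3.

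**Figure D2:**
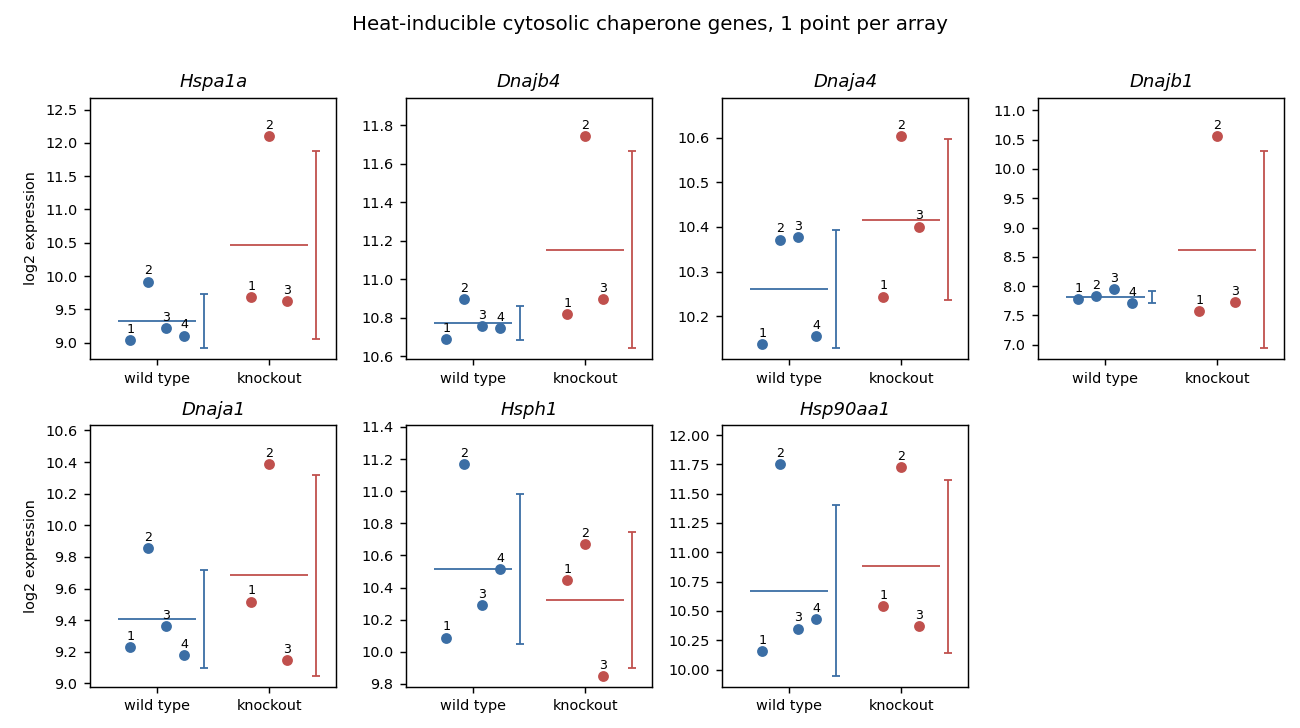
Log2 expression (vertical axes, each with its own range) of the 7 heat-inducible cytosolic members in each array, numbered by replicate, with the group mean as a line and a bar of 1 SD to each side (n = 4 wild type, n = 3 knockout). Knockout replicate 2 is the highest knockout point in each panel, at 12.10 for Hspa1a and 10.56 for Dnajb1, and wild type replicate 2 is the highest point for Hsp90aa1 (11.75) and Hsph1 (11.17).

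Hsp90aa1, Hspa1a, Dnaja1 and Hsph1 were high on both arrays numbered 2, and Dnajb1 on that of the knockout alone. Relative to the other arrays of its genotype, knockout replicate 2 was higher by 2.91 for Dnajb1, 2.44 for Hspa1a, 1.27 for Hsp90aa1, 1.06 for Dnaja1 and 0.52 for Hsph1. On wild type replicate 2 the same values were 0.01 for Dnajb1, 0.80 for Hspa1a, 1.44 for Hsp90aa1, 0.60 for Dnaja1 and 0.87 for Hsph1. Hspa4l, a relative of Hsph1 that was listed here with the constitutive members, was 0.65 higher on wild type replicate 2 and 0.11 higher on knockout replicate 2. Whether it is inducible in this muscle was not tested. Over the members, wild type replicate 2 was the highest wild type array for 28 of 58 (48.3%, with 32.0% of all genes), and knockout replicate 2 the highest knockout array for 20 of 58 (34.5%, with 18.4% of all genes).

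**Figure D3:**
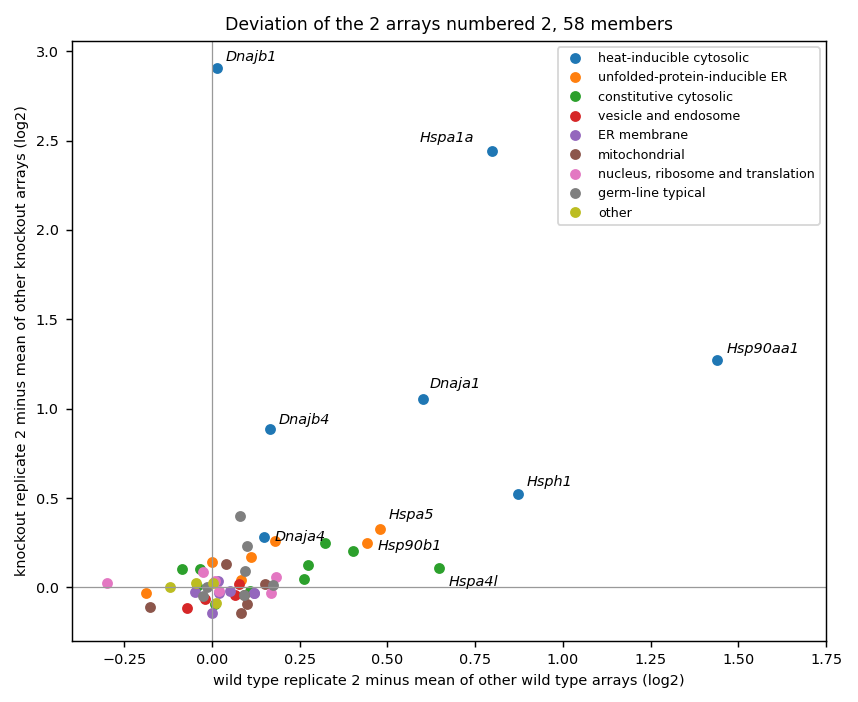
Deviation of wild type replicate 2 from the mean of the other 3 wild type arrays (horizontal axis, log2) against that of knockout replicate 2 from the mean of the other 2 knockout arrays (vertical axis, log2), 1 point for each of the 58 members, coloured by group. Dnajb1 (0.01 and 2.91) and Hspa1a (0.80 and 2.44) stand high on the knockout axis, and Hsp90aa1 (1.44 and 1.27) is farthest right.

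Inducible and constitutive cytosolic members were set side by side on each array. The mean deviation of the 7 heat-inducible members from the wild type mean was -0.23, 0.43, -0.07 and -0.13 in wild type, against 0.01, 1.29 and -0.11 in knockout. For the 10 constitutive cytosolic members it was -0.08, 0.14, -0.02 and -0.04 in wild type, against -0.04, 0.01 and -0.11 in knockout. By these means knockout replicate 2 was high for the inducible set and level with wild type for the constitutive set. Single constitutive members ran from -0.24 (Dnajc7) to 0.20 (Hspa2) against their wild type mean on that array. It was the highest knockout array for 6 of the 10 (60%, with 18.4% of all genes), and the highest of all 7 arrays for 0 of them. The inducible mean less the constitutive mean was 0.44 higher in knockout than in wild type, but 0.03 higher without knockout replicate 2 and 0.66 higher without knockout replicate 3.

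**Figure D4:**
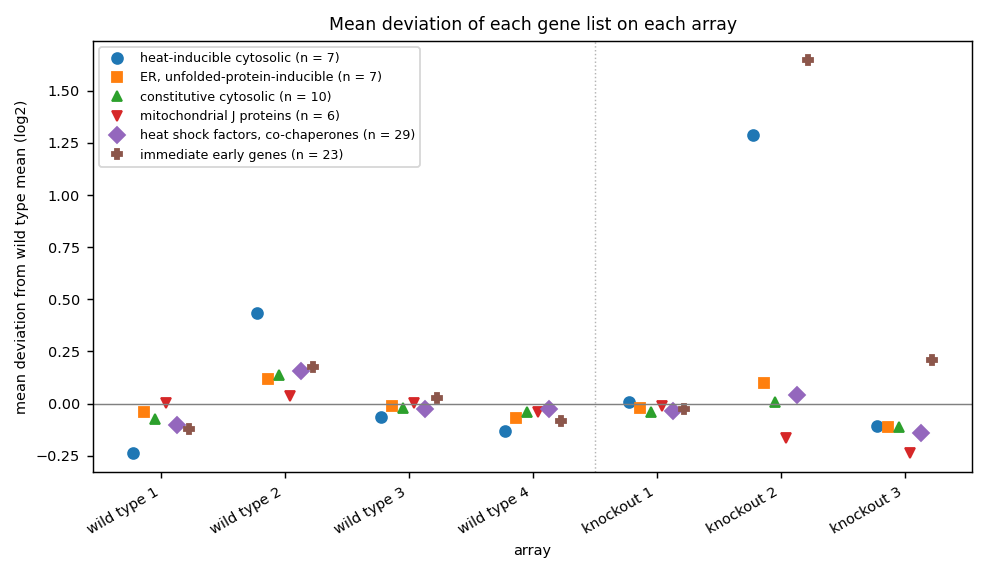
Mean deviation from the wild type mean (log2, vertical axis) of 6 gene lists on each of the 7 arrays (horizontal axis), 1 marker per list. On knockout replicate 2 the heat-inducible members (1.29) and the immediate early genes (1.65) lie far above the other lists, and on wild type replicate 2 the heat-inducible members are highest (0.43).

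Constitutive cytosolic members had differences from -0.23 to 0.13, none past the adjusted threshold. Of 10, 4 were higher and 6 lower, with a median of -0.05. At an unadjusted p under 0.05, 2 were lower in knockout (20%, with 6.69% of all genes) and 0 higher. The median was -0.09 without knockout replicate 2 and 0.02 without wild type replicate 2. Hspa8 (HSC70), the constitutive HSP70, read 13.23, 13.62, 13.31 and 13.36 in wild type, against 13.39, 13.55 and 13.22 in knockout, and differed by 0.01 ± 0.11 (adjusted p = 0.99), and by -0.08 on leaving out knockout replicate 2. Dnajc7, which binds both HSP70 and HSP90, read 9.30, 9.45, 9.47 and 9.26 in wild type, against 9.16, 9.13 and 9.14 in knockout. Its knockout arrays all lay below its wild type arrays, 1.17-fold lower on average, at -0.23 ± 0.06 (adjusted p = 0.26). Dnaja2, a constitutive class A co-chaperone, read 11.17, 11.11, 11.17 and 11.11 in wild type, against 11.11, 10.98 and 10.83 in knockout, and differed by -0.16 ± 0.07 (adjusted p = 0.45), with 2 of 3 knockout arrays below all wild type arrays. Hspa2, an HSP70 best known from the testis, had the highest difference of the group. It read 8.25, 8.17, 8.26 and 8.25 in wild type, against 8.22, 8.43 and 8.43 in knockout, and differed by 0.13 ± 0.06 (adjusted p = 0.50).

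The nucleotide exchange factors and muscle-linked members of this group, named after their values were seen, had overlapping genotypes. Hspa4l read 8.43, 9.13, 8.46 and 8.56 in wild type, against 8.53, 8.55 and 8.34 in knockout, and differed by -0.17 ± 0.17 (adjusted p = 0.78). Its wild type replicate 2 stood above the remaining 6 arrays. Hspa4 differed by 0.07 ± 0.08 (adjusted p = 0.81), and by 0.03 on leaving out knockout replicate 2. Dnajb2, which is linked to neuromuscular disease, read 9.20, 9.67, 9.28 and 9.33 in wild type, against 9.37, 9.40 and 9.03 in knockout, and differed by -0.10 ± 0.14 (adjusted p = 0.84), and by -0.17 on leaving out knockout replicate 2. Dnajb5 ran from 9.89 to 10.21 in wild type and 9.97 to 10.02 in knockout, and differed by -0.03 ± 0.07 (adjusted p = 0.94), and by -0.04 on leaving out knockout replicate 2. Dnajb6, with a signal below the overall median, ran from 6.85 to 6.96 in wild type and 6.91 to 7.10 in knockout. Its difference was 0.07 ± 0.06 (adjusted p = 0.72).

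The members that the unfolded protein response induces in the ER were divided in direction: 3 were higher and 4 lower, with a median of -0.04, and 0 of 7 had an unadjusted p under 0.05. Hspa5 (BiP), the ER HSP70, read 11.28, 11.84, 11.42 and 11.38 in wild type, against 11.35, 11.78 and 11.55 in knockout, and differed by 0.08 ± 0.15 (adjusted p = 0.89), and by -0.03 on leaving out knockout replicate 2. Hsp90b1 (GRP94), the ER HSP90, read 10.79, 11.28, 10.89 and 10.82 in wild type, against 10.97, 11.21 and 10.95 in knockout, and differed by 0.09 ± 0.13 (adjusted p = 0.85), and by 0.01 on leaving out knockout replicate 2. Both genes were highest on the arrays numbered 2, wild type first. Across the group wild type replicate 2 was the highest of all 7 arrays for 5 of 7 members, where 18.5% of all genes were, and knockout replicate 3 was the lowest knockout array for 6 of 7, where 25.0% of all genes were.

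The J-domain partners of BiP varied less. Dnajb9 (ERdj4), which hands unfolded proteins to degradation, read 10.51, 10.67, 10.54 and 10.44 in wild type, against 10.54, 10.66 and 10.26 in knockout, and differed by -0.05 ± 0.10 (adjusted p = 0.90), and by -0.14 on leaving out knockout replicate 2. Dnajc3, an inhibitor of stress kinases as well as a co-chaperone, read 9.73, 9.79, 9.71 and 9.62 in wild type, against 9.60, 9.76 and 9.59 in knockout, and differed by -0.06 ± 0.06 (adjusted p = 0.76), and by -0.12 on leaving out knockout replicate 2. Dnajb11 (ERdj3), which binds clients ahead of BiP, read 8.87, 8.94, 8.87 and 8.84 in wild type, against 8.87, 8.87 and 8.79 in knockout, and differed by -0.04 ± 0.04 (adjusted p = 0.78). The groups overlapped for each of these 3 genes. Dnajc10 (ERdj5), a disulfide reductase, read 8.86, 8.59, 8.75 and 8.72 in wild type, against 8.81, 8.73 and 8.71 in knockout, and differed by 0.02 ± 0.07 (adjusted p = 0.95), and by 0.03 on leaving out knockout replicate 2, and here wild type replicate 2 was the lowest array. Hspa13, a microsomal HSP70, read 8.97, 8.99, 9.03 and 8.97 in wild type, against 9.00, 8.97 and 8.66 in knockout, and differed by -0.11 ± 0.08 (adjusted p = 0.71), with knockout replicate 3 alone below the rest.

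The lowest p-values among the members belonged to genes outside the inducible groups. Dnajc27, a J-domain protein that also carries a Rab-like GTPase domain, read 10.11, 10.10, 9.99 and 9.96 in wild type, against 9.80, 9.79 and 9.73 in knockout. Every knockout value was under every wild type value, 1.20-fold lower on average, with a difference of -0.27 ± 0.05 (adjusted p = 0.12) that ran from -0.29 to -0.25 when each array was left out in turn. Dnajc12, a co-chaperone of the aromatic amino acid hydroxylases, read 9.05, 8.89, 9.05 and 8.92 in wild type, against 8.74, 8.64 and 8.55 in knockout. Its knockout arrays were again all below wild type, 1.26-fold lower, at -0.33 ± 0.06 (adjusted p = 0.14) and from -0.38 to -0.29 with each array left out.

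Hspa12b, a distant HSP70 found mainly in endothelial cells, read 8.23, 8.19, 8.19 and 8.13 in wild type, against 8.07, 8.01 and 7.91 in knockout. All knockout arrays lay below wild type, 1.14-fold lower, at -0.19 ± 0.05 (adjusted p = 0.25). The 10 measured endothelial marker genes were lower in 10 of 10 cases, with a median difference of -0.31. At an unadjusted p under 0.05, 6 were lower (60%, with 6.69% of all genes). The mean log2 level of the 10 markers ran from 9.57 to 9.76 in wild type and from 9.29 to 9.41 in knockout. Their part in the Hspa12b value was not tested, and in whole muscle fewer cells of a type and less RNA per cell cannot be told apart. Its relative Hspa12a differed by -0.07 ± 0.05 (adjusted p = 0.67).

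**Figure D5:**
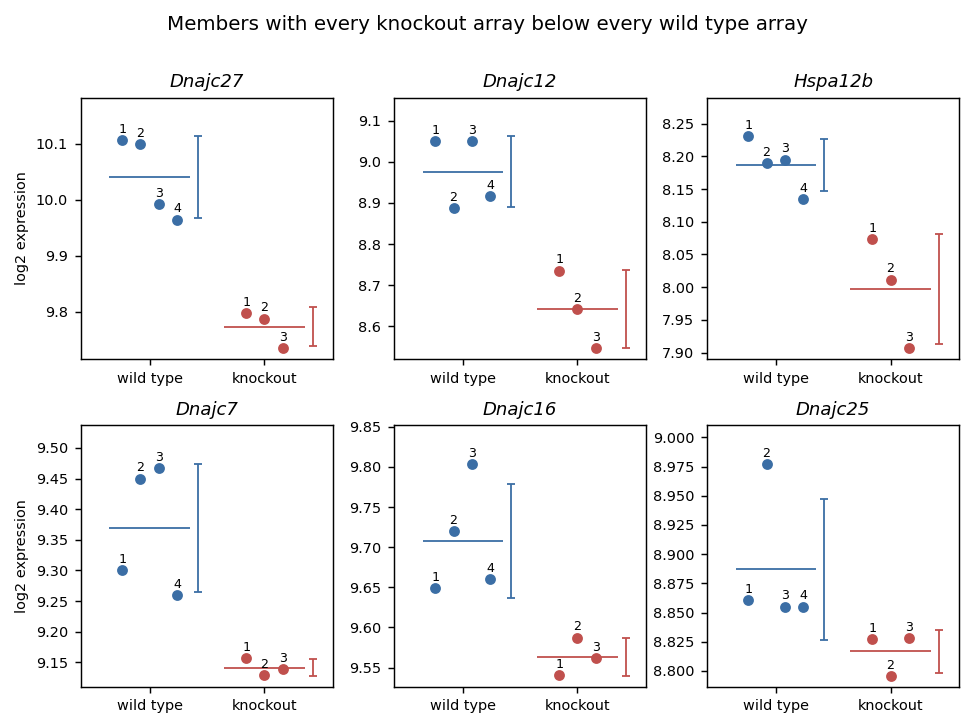
Log2 expression (vertical axes, each with its own range) of the 6 members with every knockout array below every wild type array, points numbered by replicate, with the group mean as a line and a bar of 1 SD to each side (n = 4 wild type, n = 3 knockout). Differences run from -0.33 for Dnajc12 to -0.07 for Dnajc25, and no knockout point reaches the lowest wild type point in any panel.

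Where 53.3% of all genes were lower, 4 of the 4 vesicle and endosome members were, with a median of -0.07. Besides Dnajc27 these were Dnajc13, an endosomal protein read by 15 probe sets between -0.11 and 0.08, Dnajc5, the synaptic vesicle cysteine string protein, and Dnajc6 (auxilin), which uncoats clathrin. Dnajc6 read 6.74, 6.75, 6.75 and 6.96 in wild type, against 6.70, 6.68 and 6.89 in knockout, among the dimmer signals, and differed by -0.04 ± 0.08 (adjusted p = 0.89), and by -0.00 on leaving out knockout replicate 2. The groups overlapped for these last 3.

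ER membrane members stood at 2 higher and 5 lower, with a median of -0.05. At an unadjusted p under 0.05, 2 were lower (28.6%, with 6.69% of all genes). Dnajc16 read 9.65, 9.72, 9.80 and 9.66 in wild type, against 9.54, 9.59 and 9.56 in knockout, and differed by -0.15 ± 0.04 (adjusted p = 0.34). Dnajb12, which serves in the degradation of membrane proteins, read 10.01, 9.94, 9.96 and 9.98 in wild type, against 9.94, 9.85 and 9.81 in knockout, and differed by -0.10 ± 0.04 (adjusted p = 0.45). Dnajc16 did not overlap between genotypes, whereas for Dnajb12 wild type replicate 2 and knockout replicate 1 were level. Dnajc25, named after its values were seen, read 8.86, 8.98, 8.86 and 8.86 in wild type, against 8.83, 8.80 and 8.83 in knockout, and differed by -0.07 ± 0.04 (adjusted p = 0.61), with knockout below wild type throughout. Dnajc1, an ER membrane protein that also binds ribosomes, had the highest difference of the group. It read 8.19, 8.31, 8.38 and 8.20 in wild type, against 8.45, 8.34 and 8.25 in knockout, and differed by 0.08 ± 0.07 (adjusted p = 0.74).

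All 6 mitochondrial J-domain members were lower in knockout, with a median of -0.11, where 53.3% of all genes were lower. Without knockout replicate 3, 5 of them were lower, with 12297 of 19938 over all genes. Without both arrays numbered 2 it was also 5, with 9343 of 19938 over all genes. With any other single array left out all 6 stayed lower. At an unadjusted p under 0.05, 2 were lower (33.3%, with 6.69% of all genes). The mean deviation of the 6 members was 0.00, 0.04, 0.00 and -0.04 in wild type, against -0.01, -0.16 and -0.23 in knockout. Knockout replicate 1 was thus level with wild type. Dnaja3 (TID1), the partner of matrix HSP70, read 10.26, 10.31, 10.24 and 10.17 in wild type, against 10.17, 9.93 and 9.98 in knockout, and differed by -0.22 ± 0.06 (adjusted p = 0.33). Dnajc28 read 9.10, 8.94, 9.13 and 9.12 in wild type, against 9.07, 8.74 and 8.62 in knockout, and differed by -0.26 ± 0.11 (adjusted p = 0.46). In both, knockout replicates 2 and 3 lay below every wild type array and replicate 1 did not. Dnajc11, of the contact site complex of the inner membrane, read 8.67, 8.80, 8.76 and 8.67 in wild type, against 8.67, 8.55 and 8.62 in knockout, and differed by -0.11 ± 0.05 (adjusted p = 0.47). Dnajc30 had the smallest difference of the group. It read 10.12, 10.17, 10.09 and 10.04 in wild type, against 10.05, 10.04 and 10.12 in knockout, and differed by -0.04 ± 0.04 (adjusted p = 0.81), and by -0.02 on leaving out knockout replicate 2.

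Members of the nucleus, ribosome and translation stood at 2 higher and 4 lower, with a median of -0.04 and 0 of 6 at an unadjusted p under 0.05. Dnajc21, which acts in ribosome assembly, read 10.58, 10.27, 10.53 and 10.61 in wild type, against 10.51, 10.30 and 10.04 in knockout, and differed by -0.21 ± 0.12 (adjusted p = 0.63). Its low value was knockout replicate 3, and wild type replicate 2 was level with knockout replicate 2. Dnajc8, a splicing-associated protein, read 8.68, 8.75, 8.80 and 8.75 in wild type, against 8.91, 8.81 and 8.63 in knockout, and differed by 0.04 ± 0.07 (adjusted p = 0.90), and by 0.02 on leaving out knockout replicate 2.

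Germ-line typical members had a median of -0.01, with 3 higher and 4 lower. Dnajc5g was the single member with all knockout arrays above wild type, though narrowly, with 6.123 at least in knockout and 6.117 at most in wild type. It read 6.04, 6.12, 6.07 and 5.95 in wild type, against 6.12, 6.36 and 6.14 in knockout, below the overall median signal, and differed by 0.17 ± 0.07 (adjusted p = 0.47), and by 0.09 on leaving out knockout replicate 2. Hspa1l, a testis HSP70 that neighbours Hspa1a, read 10.40, 10.58, 10.50 and 10.60 in wild type, against 10.90, 10.96 and 10.22 in knockout, and differed by 0.17 ± 0.18 (adjusted p = 0.79), and by 0.04 on leaving out knockout replicate 2, with knockout replicates 1 and 2 above all wild type arrays and replicate 3 below them. Dnajb7 had the lowest difference of the group. It read 5.54, 5.60, 5.53 and 5.43 in wild type, against 5.33, 5.54 and 5.57 in knockout, and differed by -0.04 ± 0.07 (adjusted p = 0.88), and by -0.07 on leaving out knockout replicate 2, and its signal was dim. Dnajc22, in none of the groups named, was dim as well. It read 6.75, 6.77, 6.76 and 6.77 in wild type, against 6.77, 6.77 and 6.95 in knockout, and differed by 0.07 ± 0.05 (adjusted p = 0.70).

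Heat shock factors and co-chaperones, the proteins that switch on the heat response or steer HSP70 and HSP90, were read for 29 of 31 listed genes. Of these 0 had an adjusted p under 0.05 in limma. At an unadjusted p under 0.05, 3 were lower (10.3%, with 6.69% of all genes) and 0 higher. By direction 10 were higher and 19 lower, with a median of -0.07. Stub1 (CHIP), the ubiquitin ligase of HSP70 clients, read 9.67, 9.71, 9.72 and 9.66 in wild type, against 9.58, 9.61 and 9.64 in knockout, and differed by -0.08 ± 0.03 (adjusted p = 0.43). Fkbp4, a steroid receptor partner of HSP90, read 9.97, 10.10, 10.05 and 9.97 in wild type, against 9.98, 9.87 and 9.76 in knockout, and differed by -0.15 ± 0.06 (adjusted p = 0.46). Bag5, a nucleotide exchange factor, read 8.64, 8.62, 8.62 and 8.75 in wild type, against 8.52, 8.62 and 8.49 in knockout, and differed by -0.11 ± 0.05 (adjusted p = 0.47). Stub1 did not overlap between genotypes, whereas Fkbp4 did. Bag5 did not either, though narrowly, with 8.616 at most in knockout and 8.620 at least in wild type. Every knockout array lay below every wild type array for 3 of the 29 genes (10.3%, with 5.33% of all genes).

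The higher co-chaperones with the smallest p were Bag2, Sugt1 and Unc45a. Bag2, an inhibitor of CHIP, read 8.04, 8.22, 8.08 and 8.10 in wild type, against 8.14, 8.28 and 8.28 in knockout, and differed by 0.12 ± 0.06 (adjusted p = 0.52). Sugt1, an HSP90 adaptor, read 10.29, 10.15, 10.40 and 10.23 in wild type, against 10.41, 10.31 and 10.29 in knockout, and differed by 0.07 ± 0.06 (adjusted p = 0.76). Unc45a, the general form of the myosin chaperone, read 8.17, 8.42, 8.29 and 8.26 in wild type, against 8.28, 8.37 and 8.41 in knockout, and differed by 0.07 ± 0.06 (adjusted p = 0.76). All 3 had an unadjusted p above 0.05.

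Wild type replicate 2 was the highest of all 7 arrays for 16 of these 29 genes (55.2%, with 18.5% of all genes), and knockout replicate 2 for 3 of them (10.3%, with 1995 of 19938 over all genes). Knockout replicate 3 was the lowest of all 7 arrays for 15 of the 29 (51.7%, with 17.6% of all genes). The genes in the next sentences were named after their values were seen. Stip1 (HOP), which joins HSP70 to HSP90, read 10.53, 11.48, 10.66 and 10.88 in wild type, against 10.71, 11.03 and 10.52 in knockout. Its difference was -0.13 ± 0.24 (adjusted p = 0.89), and -0.27 without knockout replicate 2. Chordc1, an HSP90 partner, read 9.76, 10.61, 10.03 and 10.14 in wild type, against 10.11, 10.31 and 9.62 in knockout. Its difference was -0.12 ± 0.23 (adjusted p = 0.89), and -0.27 without knockout replicate 2. Unc45b, the muscle myosin chaperone, read 11.11, 11.60, 10.98 and 11.19 in wild type, against 11.09, 11.15 and 10.93 in knockout. Its difference was -0.16 ± 0.14 (adjusted p = 0.75). For these 3 genes wild type replicate 2 was the highest array, above knockout replicate 2. Bag3, the partner of HSP70 in the clearance of damaged contractile proteins, read 10.62, 11.35, 10.82 and 10.56 in wild type, against 10.81, 11.49 and 10.82 in knockout, with both arrays numbered 2 high and knockout replicate 2 the higher. Its difference was 0.20 ± 0.24 (adjusted p = 0.82), and -0.02 without knockout replicate 2.

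Genes of the ER unfolded protein response outside the chaperone families were read for 17 of 17 listed genes, of which 0 had an adjusted p under 0.05 in limma. By direction 12 were higher and 5 lower, with a median of 0.13. Without knockout replicate 2, a setting chosen after seeing the data, 13 were higher and 4 lower, with a median of 0.03. On all 7 arrays, at an unadjusted p under 0.05, 2 were higher (11.8%, with 3.93% of all genes) and 1 lower (5.88%, with 6.69%). Atf6, a membrane-bound sensor of the response, read 9.39, 9.51, 9.55 and 9.46 in wild type, against 9.60, 9.70 and 9.63 in knockout, and differed by 0.17 ± 0.05 (adjusted p = 0.30). Pdia4, a disulfide isomerase, read 9.33, 9.40, 9.40 and 9.24 in wild type, against 9.43, 9.62 and 9.47 in knockout, and differed by 0.16 ± 0.06 (adjusted p = 0.43), and by 0.11 on leaving out knockout replicate 2. Calr (calreticulin), a calcium-binding lectin chaperone, read 11.29, 11.29, 11.25 and 11.16 in wild type, against 11.29, 11.52 and 11.35 in knockout, and differed by 0.14 ± 0.06 (adjusted p = 0.48), and by 0.08 on leaving out knockout replicate 2.

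Among the lower genes, Herpud1, of the ER degradation machinery, read 11.45, 11.34, 11.36 and 11.32 in wild type, against 11.31, 11.23 and 11.12 in knockout, and differed by -0.15 ± 0.05 (adjusted p = 0.41). Sil1, the nucleotide exchange factor of BiP, read 9.36, 9.31, 9.31 and 9.31 in wild type, against 9.28, 9.22 and 9.33 in knockout, and differed by -0.05 ± 0.04 (adjusted p = 0.71), and by -0.02 on leaving out knockout replicate 2. Atf4, a transcription factor of the stress response, read 9.15, 9.31, 9.17 and 9.14 in wild type, against 9.12, 9.28 and 8.98 in knockout, and differed by -0.06 ± 0.08 (adjusted p = 0.82), and by -0.14 on leaving out knockout replicate 2. Knockout replicate 2 was the highest of all 7 arrays for 9 of the 17 genes (52.9%, with 1995 of 19938 over all genes). Their mean deviation there was 0.18, against -0.00 and 0.03 on the other knockout arrays and 0.09 on wild type replicate 2.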

How the data were processed

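Expression was measured on 7 single-colour arrays. The deposited values of 28856 probe sets were read as log2 expression made by the authors. The base is inferred from their range (4.41 to 14.65), and no source used here gives the background correction, normalization or build. Columns left unused numbered 0. Probe sets were named through the GEO platform annotation: 21789 had 1 symbol, 1621 several and 5446 none. Each gene was read from its brightest probe set. limma 3.58.1 in R 4.3.3 (lmFit, eBayes, no covariate) compared 3 knockout with 4 wild type arrays, with Benjamini-Hochberg adjustment over the 21789 probe sets and a threshold of 0.05. The fit was tested on simulated data. Members, groups and lists were chosen with earlier results of these data known, so lists are described by counts and medians with no test. Named genes were the heat-inducible and ER groups, the 12 other members of smallest p, each group's extremes, and 3 genes per direction of each pathway list; others are marked. Of the members, 8 had a mean signal at or below the overall median, where differences can be compressed. The alternatives left out each array in turn, dropped dim probe sets, averaged the probe sets of a gene, tested unnamed probe sets too, weighted the arrays, blocked on replicate number, normalized by quantiles or by medians, changed the prior (trended, robust) and changed the threshold. Leaving out both arrays numbered 2 was chosen after seeing the data.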

Additional observations from a re-analysis of the deposited data

Results flagged for a closer look

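In the 4 wild type arrays, 8 of 58 members (13.8%) had a highest or lowest array whose gap to the nearest other array, as a share of the whole range, passed Dixon's limit. Chance flags about 1 in 20 groups where values vary smoothly, but 20.5% of all genes passed it here, and 59.4% of all genes (39.7% of the members) had exactly equal values on several arrays. Wild type replicate 2 was the array apart for Hsp90aa1 (11.75, against 10.16 to 10.43), Dnajc25 (8.98, against 8.86), Dnajc17 (9.18, against 9.00 to 9.03), Dnajb3 (5.78, against 5.59 to 5.62) and, as the lowest, Hspa2 (8.17, against 8.25 to 8.26). Wild type replicate 4 was apart for Dnajc6 (6.96, against 6.74 to 6.75) and Dnajb13 (7.20, against 7.12), and wild type replicate 1 for Hspa12a (7.68, against 7.55). Of the named pathway genes, Bag5 was apart on wild type replicate 4 (8.75, against 8.62 to 8.64), Sil1 on wild type replicate 1 (9.36, against 9.31) and Atf4 on wild type replicate 2 (9.31, against 9.14 to 9.17). With 3 knockout arrays the same comparison was not made for knockout, so the high knockout replicate 2 is not covered by it.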

How the results depend on the processing

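No alternative brought a named gene past an adjusted p of 0.05: of 732 values for 46 named genes, 712 kept their direction, 20 changed sign, and the lowest adjusted p was 0.0841, for Dnajc27 with dim probe sets left out. The number of members called was 0 at an adjusted p under 0.05 (0 to 0 with each array left out). It was 10 at an unadjusted p under 0.05, 9 lower and 1 higher, with 6.69% and 3.93% of all genes. Members that did not overlap between genotypes numbered 7 (12.1%, with 8.61% of all genes), and 7 to 18 with each array left out. There were 18 without knockout replicate 1 and 14 without wild type replicate 2, with 20.4% and 12.3% of all genes. Without knockout replicate 3 there were 11, with 17.9% of all genes. Without wild type replicate 4 there were 10 and without knockout replicate 2 there were 8, with 10.8% and 13.4% of all genes. Without wild type replicate 1 or 3 there were 7, with 10.9% and 10.7% of all genes. Without both arrays numbered 2 there were 15 (25.9%), with 17.9% of all genes. With each array left out, the median difference ran from -0.08 to 0.51 for heat-inducible members, -0.052 to 0.042 for ER members, -0.09 to 0.02 for constitutive cytosolic members and -0.06 to -0.01 for all members, and the inducible less constitutive mean from 0.03 to 0.66. Over all genes the median ran from -0.018 without knockout replicate 3 to 0.001 without knockout replicate 2. Signs turned under array weights for Atf4 (0.022), Dnajb9 (0.064) and Hsph1 (0.073), without both arrays numbered 2 for Dnajb1 (-0.17), Dnajc10 (-0.015) and Dnajc30 (0.00022), and under the replicate block for Dnajc6 (0.013). With single arrays left out they turned within -0.14 to 0.010 (Atf4), -0.076 to 0.55 (Dnaja1), -0.17 to 1.32 (Dnajb1), -0.085 to 0.033 (Dnajb7), -0.14 to 0.060 (Dnajb9), -0.026 to 0.066 (Dnajc10), -0.11 to 0.013 (Dnajc6), -0.028 to 0.11 (Dnajc8), -0.22 to 0.57 (Hsp90aa1), -0.027 to 0.20 (Hspa5) and -0.37 to 0.044 (Hsph1). The cause was not tested. Deviations of same-numbered arrays correlated at 0.29, 0.16 and -0.20 over all genes and at 0.32, 0.48 and 0.20 over the 58 members. By the all-gene values, the numbers were not taken as pairs; the replicate block left 0 members called and a median of -0.06.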

Other observations

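Slow-fibre and myeloid marker lists had larger median differences than any chaperone group. Slow-fibre markers had a median difference of 0.61 over 7 genes. At an unadjusted p under 0.05, 5 of them were higher (71.4%, with 3.93% of all genes). The mean log2 level of the 7 ran from 8.31 to 8.50 in wild type and from 8.52 to 9.22 in knockout. Myeloid markers had a median of 0.63 over 11 genes, 10 of them higher at an unadjusted p under 0.05 (90.9%, with 3.93% of all genes). At an adjusted p under 0.05 in limma 2 of the 11 passed, where 0.0251% of all genes did. The mean level of the 11 ran from 8.24 to 8.47 in wild type and from 8.93 to 9.06 in knockout. Fast-fibre markers had a median of 0.01 over 10 genes, with mean levels of 13.50 to 13.55 and 13.55 to 13.59. Their part in the member values was not tested.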
